A study of Homo sapiens with 6 samples.

Results

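The genes of 10 proteins that shape mitotic chromosomes were examined in RNA-seq of MCF10A cells, a non-tumorigenic human breast epithelial line, after depletion of the transcription factor PAX9. They are the 8 condensin subunit genes SMC2, SMC4, NCAPD2, NCAPD3, NCAPG, NCAPG2, NCAPH and NCAPH2, the topoisomerase gene TOP2A and the proliferation marker gene MKI67. They were chosen by name, by an exact match of the symbol to the gene column of the processed table, and each matched a single row among 41656. The choice of genes, like that of the lists below, was made with earlier results of these data known. All 10 were among the 12965 named features with at least 1 FPKM (mapped fragments scaled to transcript length and library size, a level per length) in the higher of the 2 groups. The 3 siNT samples received a non-targeting siRNA and the 3 siPAX9 samples received siRNAs against PAX9, all at 30 nM for 72 h in otherwise untreated cells of the same line. The comparison asks which mRNA levels differ once PAX9 is depleted. Every level below is the authors' value for a whole group, with no SD. The authors' own test statistics, p-values and q-values were not used, and no test was run. With a single value per group, whether a difference exceeds the spread between the samples was not tested here. Nothing in the labels says that the samples came from separate cultures.

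Condensin is a ring-shaped ATPase that folds chromatin into loops and compacts chromosomes as cells enter mitosis. The SMC2 and SMC4 proteins form the core of both vertebrate complexes. Condensin I adds NCAPD2, NCAPG and the kleisin NCAPH, and reaches chromosomes after the nuclear envelope breaks down, whereas condensin II adds NCAPD3, NCAPG2 and the kleisin NCAPH2 and is nuclear throughout interphase. TOP2A, topoisomerase II alpha, passes one DNA duplex through another to resolve the tangles between sister chromatids. MKI67 encodes Ki-67, which coats mitotic chromosomes, keeps them apart and is widely used as a stain for dividing cells. The genes TOP2A and MKI67 are expressed mainly in cycling cells, with the highest mRNA levels in G2 and mitosis.

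PAX9 itself had 2.80 FPKM in siNT and 0.325 FPKM in siPAX9, which left 11.6% of its siNT level. All 10 markers listed for a basal breast epithelial line were expressed in both groups, among them TP63 at 35.4 FPKM in siNT and 25.3 FPKM in siPAX9. The lowest log2 differences in that list were those of CD44 (-0.87) and TP63 (-0.49), and the highest those of KRT6A (1.38) and CDH1 (1.46). The 3 fibroblast markers summed to 0.554 FPKM in siNT and 4.27 FPKM in siPAX9, of which COL1A1 held 0.454 and 4.13 FPKM, and the 3 endothelial markers to 2.58 and 0.516 FPKM, nearly all of it PECAM1. The 5 luminal markers summed to 270 and 185 FPKM, a difference carried by KRT18 (212 and 119 FPKM), while KRT8 and GATA3 were slightly higher in siPAX9 and the median log2 difference of the 3 that passed the level filter was 0.18. The part of these markers in the values below was not tested. FPKM over all rows summed to 4427650 in siNT and 3869426 in siPAX9, and the 10 highest rows held 18.5% and 27.2% of those sums.

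Every one of the 10 genes was lower in siPAX9 than in siNT, and 7 were lower by more than 2-fold: SMC4, NCAPD2, NCAPG, NCAPH, NCAPG2, TOP2A and MKI67. None was higher. Across all 12965 named features, 7.25% were lower by more than 2-fold and 7.79% were higher by more than 2-fold. The median log2 difference, siPAX9 over siNT, was -1.32 over the 10 genes and -0.06 over all features, of which 54.6% were below 0. All 10 genes passed a 1.5-fold limit on the lower side, against 17.0% of all features, and 2 genes, NCAPH and TOP2A, passed a 4-fold limit, against 1.71%. NCAPH, at 0.781 FPKM in siPAX9, no longer passed 4-fold with 1 FPKM added to both values (-1.24). In bulk RNA, fewer cells that express a gene and less of its RNA per cell cannot be told apart.

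**Figure D1:**
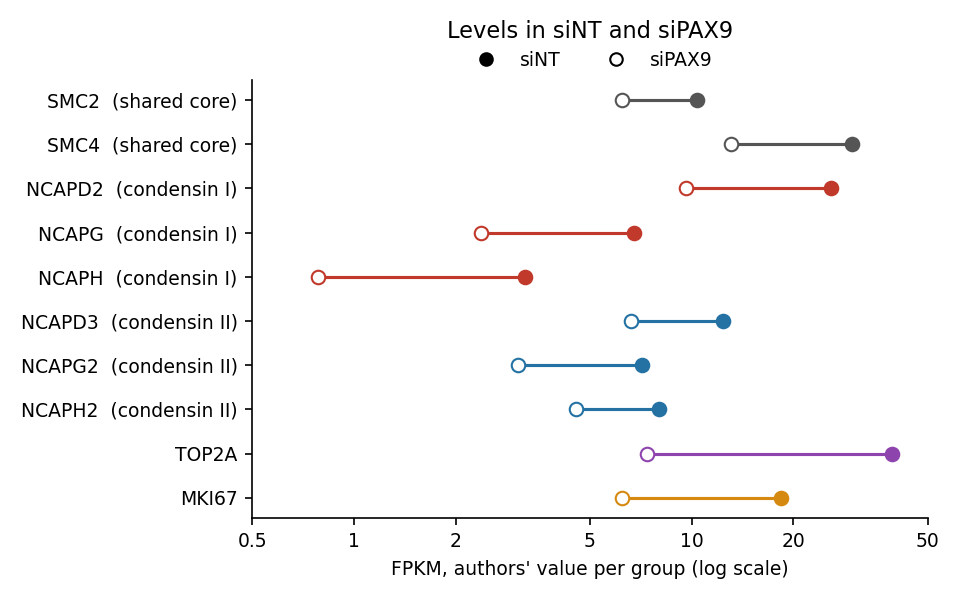
Levels of the 10 genes, 1 point per group (authors' FPKM, log axis), with siNT filled and siPAX9 open and colours for the shared condensin core, condensin I, condensin II, TOP2A and MKI67. Every open point lies to the left of its filled point, with the widest gap at TOP2A (39.3 to 7.37 FPKM) and the narrowest at SMC2 (10.4 to 6.21 FPKM).

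Among the shared core subunits, SMC2 had 10.4 FPKM in siNT and 6.21 FPKM in siPAX9, or 59.9% of its siNT level and a log2 difference of -0.74. This was the smallest difference of the 10. SMC4 was more abundant, with 29.9 FPKM in siNT and 13.0 FPKM in siPAX9, a log2 difference of -1.20 that left 43.6%. The SMC4 and SMC2 proteins pair in a fixed ratio in the condensin ring. Their mRNA levels stood at 2.89 to 1 in siNT and at 2.10 to 1 in siPAX9.

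The 3 subunits found only in condensin I were all lower by more than 2-fold. NCAPD2, a HEAT-repeat subunit and the most abundant of the 3 mRNAs, had 25.9 FPKM in siNT and 9.65 FPKM in siPAX9, a log2 difference of -1.42. NCAPG, the second HEAT-repeat subunit, had 6.75 FPKM in siNT and 2.38 FPKM in siPAX9, a log2 difference of -1.50. The kleisin NCAPH, which closes the ring, had the lowest level of all 10 genes in both groups, 3.21 FPKM in siNT and 0.781 FPKM in siPAX9, and a log2 difference of -2.04, or 4.12-fold. Without a pseudocount this was the largest difference of any condensin subunit. With 1 FPKM added to both values it was -1.24, smaller than the -1.33 of NCAPD2, so both its size and its rank depend on how such low values are handled. Condensin I subunits had a median log2 difference of -1.50.

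For the 3 subunits found only in condensin II the differences were smaller, and 1 of them passed 2-fold. That was the HEAT-repeat subunit NCAPG2, with 7.13 FPKM in siNT and 3.06 FPKM in siPAX9 and a log2 difference of -1.22. With 1 FPKM added to both values it was -0.9994, and none of the 3 then passed 2-fold. NCAPD3, the other HEAT-repeat subunit, had 12.4 FPKM in siNT and 6.63 FPKM in siPAX9, 1.87-fold lower, a log2 difference of -0.90. The kleisin NCAPH2 had 8.03 FPKM in siNT and 4.56 FPKM in siPAX9, 1.76-fold lower, a log2 difference of -0.82. Their median log2 difference was -0.90, against -1.50 for condensin I, a gap of -0.60 with no test.

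TOP2A had the highest level of the 10 genes in siNT, 39.3 FPKM, and only the third highest in siPAX9, 7.37 FPKM. Its log2 difference of -2.41, or 5.33-fold, was the largest of the 10 and left 18.8% of the siNT level. MKI67 had 18.4 FPKM in siNT and 6.21 FPKM in siPAX9, a log2 difference of -1.57 that left 33.8%. The level of MKI67 in siPAX9 was thus the same as that of SMC2 to 3 digits, although it was above SMC2 in siNT. From high to low, the order of levels in siNT was TOP2A, SMC4, NCAPD2, MKI67, NCAPD3, SMC2, NCAPH2, NCAPG2, NCAPG and NCAPH. In siPAX9 it began with SMC4, NCAPD2, TOP2A, NCAPD3 and MKI67, and the last 5 genes kept their order. The highest and lowest of the 10 levels lay 12.2-fold apart in siNT and 16.7-fold apart in siPAX9. With 1 value per group, no spread is at hand to say which neighbours in this order differ.

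**Figure D2:**
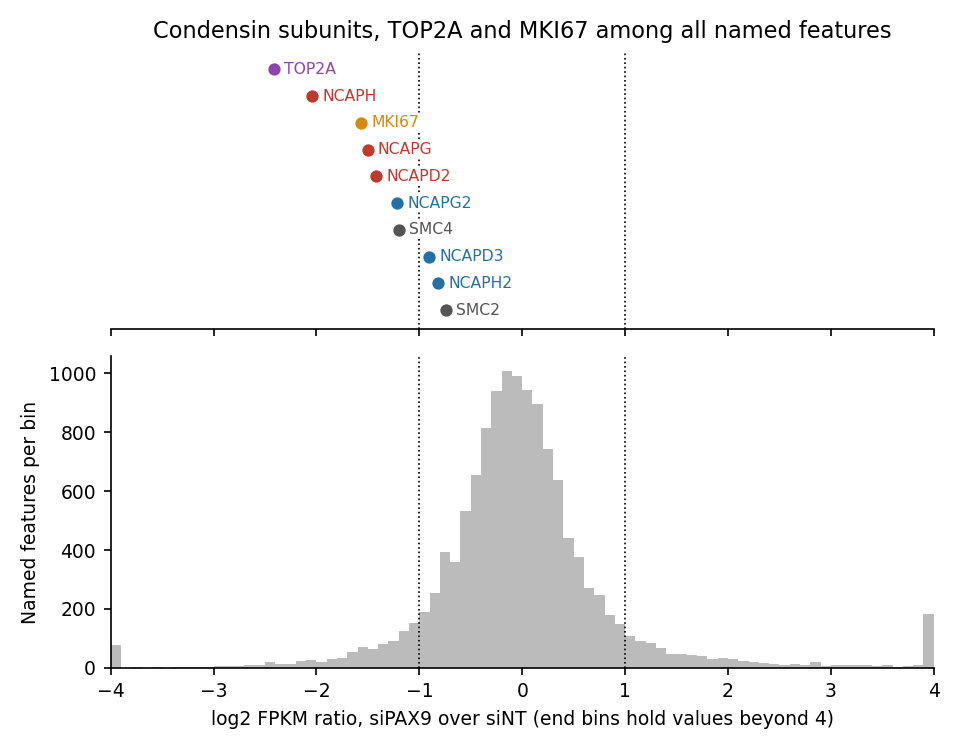
Log2 FPKM ratio of siPAX9 over siNT for the 10 genes (points, upper panel) and for all 12965 named features (histogram of features per bin, lower panel), with dotted lines at 2-fold. The 10 genes lie between -2.41 and -0.74, in the left shoulder of a distribution with its median at -0.06.

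Against all features, ranked from the lowest log2 difference upward, TOP2A stood at place 146 of 12965, so that 1.12% of features lay below it. NCAPH stood at place 216 and MKI67 at place 375, with 1.66% and 2.88% below. The condensin I subunits NCAPG and NCAPD2 had 3.25% and 3.69% of features below them, and NCAPG2 and SMC4 had 4.98% and 5.13%. The remaining 3, NCAPD3, NCAPH2 and SMC2, had 8.65%, 10.3% and 12.5% below. The 10th percentile of all features was -0.83, so that SMC2 and NCAPH2 lay above it.

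Comparing each condensin I subunit with its counterpart in condensin II, the condensin I gene had the larger difference in all 3 pairs. The kleisin NCAPH stood at 0.401 of the NCAPH2 level in siNT and at 0.171 in siPAX9, a gap of -1.23 on the log2 scale that rests on an NCAPH level below 1 FPKM. With 1 FPKM added to each value, this gap was -0.54 and that of NCAPD2 and NCAPD3 was -0.52. NCAPD2 had 2.08 times the level of NCAPD3 in siNT and 1.45 times in siPAX9, a gap of -0.52 without the addition as well. For NCAPG and NCAPG2 the ratio was 0.948 in siNT and 0.778 in siPAX9, a gap of -0.28, or -0.20 with 1 FPKM added to each value. A ratio of 2 FPKM values within a group does not depend on how the groups were scaled against each other.

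Of the ratios examined, that of the type II topoisomerases differed most between the groups. TOP2B, the isoform that non-dividing cells also express, had 32.7 FPKM in siNT and 22.9 FPKM in siPAX9, a log2 difference of -0.51. TOP2A therefore stood at 1.20 times the TOP2B level in siNT and at 0.321 times in siPAX9. Relative to MKI67, TOP2A went from 2.14 times to 1.19 times.

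**Figure D3:**
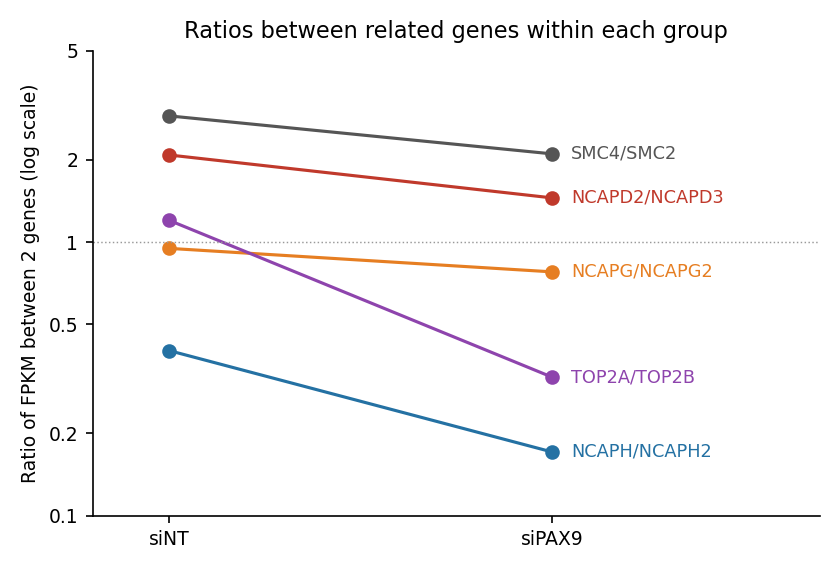
Ratio of the authors' FPKM between related genes within siNT and within siPAX9 (log axis, 1 value per group, dotted line at equal levels). The TOP2A to TOP2B line crosses from 1.20 to 0.321, and all 3 pairs of condensin I over condensin II slope downward.

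The other complexes of the SMC family were set beside condensin. Cohesin, which holds sister chromatids together and forms interphase loops, was represented by 17 genes of its ring and regulators, all of them expressed. Of these 5 were lower by more than 2-fold, none was higher, and the median log2 difference was -0.21. The 2 lowest were CDCA5 (sororin, which protects cohesion), with 10.3 FPKM in siNT and 3.22 FPKM in siPAX9, and PTTG1 (securin, the inhibitor of separase), with 65.2 and 21.8 FPKM. The other 3 past 2-fold were SGO1, ESPL1 and ESCO2, named here after their values were seen, which protect, cleave or acetylate cohesin. At the top of the list were WAPL (0.19) and ESCO1 (0.20). The cohesin ATPases SMC1A and SMC3, also chosen after their values were seen as the relatives of SMC2 and SMC4, had log2 differences of -0.21 and -0.28, against -0.74 and -1.20 for the condensin ATPases. In the SMC5/6 complex, which acts in DNA repair, 6 of 7 genes passed the level filter and none passed 2-fold. Its median log2 difference was -0.40, with NSMCE1 (-0.94) and NSMCE4A (-0.84) lowest and NSMCE2 (-0.31) and NSMCE3 (0.24) highest.

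Genes of proteins that act with condensin on mitotic chromosomes had a lower median than the condensin subunits themselves (-1.21). Of the 11 genes in this list, which hold kinases, cyclins, chromosomal passenger proteins, a kinesin and other chromosome-associated proteins, 8 were lower by more than 2-fold and none was higher, with a median log2 difference of -1.78. The lowest were CCNB2, a cyclin partner of CDK1, with 20.4 FPKM in siNT and 4.71 FPKM in siPAX9, and BIRC5 (survivin, of the chromosomal passenger complex), with 18.0 and 4.22 FPKM. The highest were MCPH1, an inhibitor of condensin II, at -0.21, and AKAP8, a nuclear anchoring protein, at 0.02.

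Around Ki-67, 3 of 9 genes of its partners and of nucleolar proteins at the surface of mitotic chromosomes were lower by more than 2-fold, none was higher, and all 9 were below 0, with a median of -0.53. The lowest were CDCA2, which brings a phosphatase to chromosomes at mitotic exit, with 4.84 FPKM in siNT and 1.74 FPKM in siPAX9, and FBL (fibrillarin, the methyltransferase of ribosomal RNA), at -1.44. WDR12 and BOP1, both of the PeBoW complex in ribosome assembly, were highest, at -0.46 and -0.43. The other 5 topoisomerase genes, TOP2B among them, held none past 2-fold and had a median of -0.18, with TOP1MT at -0.97, TOP1 at 0.10 and TOP3B at 0.26.

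Markers of DNA replication, the other common readout of proliferation, had a median log2 difference of -0.99 over 7 genes, all below 0 and 3 of them lower by more than 2-fold. The helicase subunits MCM2 (-1.56) and MCM6 (-1.44) were lowest, and MCM3 (-0.81) and MCM4 (-0.61) were highest. The median of the 10 genes, -1.32, thus lay between the replication markers and the partners of condensin. Over 10 reference genes in common use the median was 0.08, with HPRT1 (-1.65) and PPIA (-0.76) lowest, B2M (0.26) and YWHAZ (0.46) highest, and 1 gene, HPRT1, lower by more than 2-fold.

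**Figure D4:**
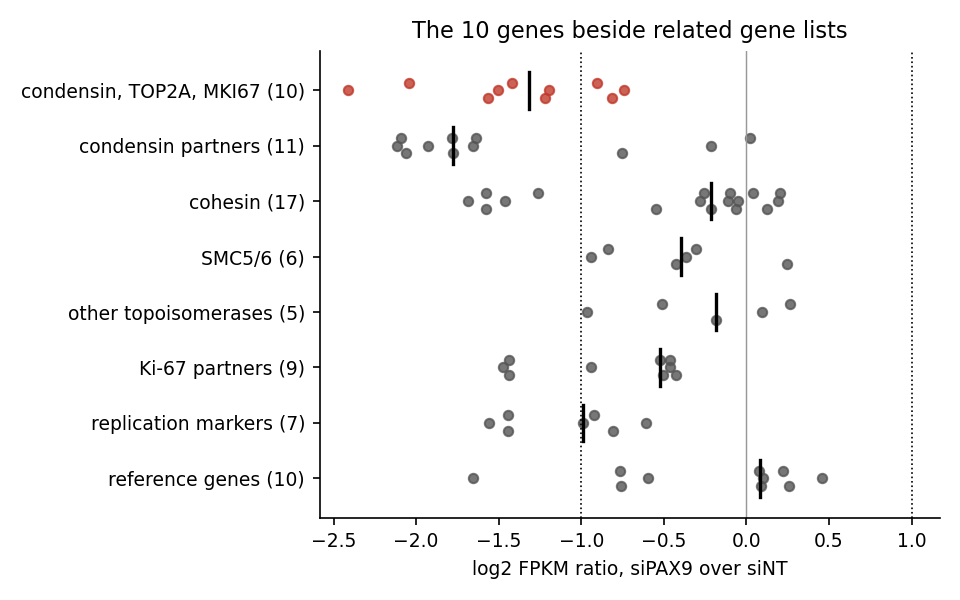
Log2 FPKM ratio of siPAX9 over siNT for each gene that passed the level filter in 8 lists, with the number of genes in brackets, a black bar at each median and dotted lines at 2-fold. By median, the 10 genes (-1.32) lie to the left of the replication markers (-0.99), the SMC5/6 complex (-0.40), cohesin (-0.21) and the reference genes (0.08). The median of the partners of condensin (-1.78) lies further left, and single genes of the lists overlap.

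The 3 features whose pattern was most like that of TOP2A, by the distance in log2 difference among 4114 single-gene features with a mean level within 2-fold of it, were RPL22L1 (-2.43), SNORA5C (-2.47) and ASNS (-2.48). For MKI67, among 5145 such features, they were NUSAP1 (-1.57), MCM2 (-1.56) and CPNE2 (-1.56). NCAPD2 and NCAPG2 lay equally far from the median of the 10. Nearest to NCAPD2 among 4684 features were TPX2 (-1.41), AURKA (-1.43) and HMGA2 (-1.43), and nearest to NCAPG2 among 4233 were C1QTNF1, ETV5 and FHOD3, all at -1.22. With 2 groups, this likeness rests on 2 levels per gene.

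The 10 genes lie on 10 different chromosomes. In the GRCh37 (hg19) coordinates of the table, TOP2A is at chr17:38544773-38574202 and MKI67 at chr10:129894925-129924468. The core subunit loci are SMC2 at chr9:106856541-106904546 and SMC4 at chr3:159974774-160152749. Condensin I loci are NCAPD2 at chr12:6603298-6641132, NCAPG at chr4:17812436-18023498 and NCAPH at chr2:97001479-97042833, and condensin II loci are NCAPD3 at chr11:134022263-134094426, NCAPG2 at chr7:158423861-158497522 and NCAPH2 at chr22:50946645-50971543. Within 250 kb of these loci lay 68 other named features with at least 1 FPKM in the higher group. Of them, 6 (8.82%) were lower by more than 2-fold and 3 were higher, against 7.25% and 7.79% of all features. No such feature lay that close to SMC2.

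For 4 of the loci, the intervals of other rows overlapped them, and the expressed ones among those rows had no difference past 2-fold. The locus of SMC4 overlapped that of IFT80, a ciliary transport gene, which had 6.78 FPKM in siNT and 7.01 FPKM in siPAX9. The locus of NCAPG overlapped that of LCORL, at 3.57 and 3.32 FPKM. At NCAPH2, the row of ODF3B, SCO2 and TYMP had 39.9 FPKM in siNT and 57.0 FPKM in siPAX9. The small RNA gene SCARNA10, inside NCAPD2, had 0.825 and 1.32 FPKM. In the GENCODE annotation lifted to GRCh37, exons of other genes overlapped 33.7% of the exonic bases of NCAPG, 27.2% of NCAPH2, 22.0% of SMC4, 11.9% of NCAPD3 and 5.92% of NCAPD2. The exons of SMC2, NCAPH, NCAPG2, TOP2A and MKI67 overlapped none. The sources used here do not say whether strand was used in counting, so for the first 5 genes reads of the overlapping exons cannot be told apart from their own. The medians of condensin I and condensin II are the values of NCAPG and NCAPD3, both among these 5. The part of such reads in the gap between the complexes was not tested.

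Genes that peak in G2 and mitosis often carry a cell cycle genes homology region (CHR) near their start, frequently with CCAAT boxes, whereas genes of the G1 to S transition often carry E2F sites. Windows of 250 bases before to 50 after the annotated start were therefore searched on both strands for CHR as TTTGAA or TTCGAA, for CCAAT, and for E2F as TTTCCCGC, TTTGGCGC, TTCCCGCC or TTGGCGCC. RefSeq promoter sequences (GRCh38.p14) matched 9 of the 10 genes, all but NCAPH2, with 12 windows, and each window was found at a single place in GRCh37. A CHR match was present in at least 1 window of 8 of the 9 genes, all but NCAPH, and in 8 of 12 windows, against 16.4% of all 35116 windows. CCAAT was present in 5 of 12 windows (MKI67, NCAPD2, NCAPD3, NCAPH and TOP2A), against 34.6%. An E2F match was present in 1 of 12, against 5.30%, and 4 windows, those of MKI67, NCAPD2, NCAPD3 and TOP2A, held both CHR and CCAAT, against 6.38%. A match describes letters in the window, not a bound site or a cause.

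The windows of the genes with the largest differences, and that of NCAPD3 as a condensin II gene for contrast, are printed 5′ to 3′ on the strand of the gene, from 250 bases before the start to 30 after it, with capitals at CHR, CCAAT and E2F matches in either orientation. Capitals that open with ATTGG mark the CCAAT box on the opposite strand, those that read TTCAAA mark a CHR there, and the run GGCGGGAAA holds 2 overlapping E2F matches. They are TOP2A at chr17:38574119-38574398 (minus strand), MKI67 at chr10:129924658-129924937 (minus), NCAPD2 at chr12:6603018-6603297 (plus), NCAPG at chr4:17812352-17812631 (plus), NCAPH at chr2:97001254-97001533 (plus) and NCAPD3 at chr11:134093832-134094111 (minus), all in GRCh37.
TOP2A: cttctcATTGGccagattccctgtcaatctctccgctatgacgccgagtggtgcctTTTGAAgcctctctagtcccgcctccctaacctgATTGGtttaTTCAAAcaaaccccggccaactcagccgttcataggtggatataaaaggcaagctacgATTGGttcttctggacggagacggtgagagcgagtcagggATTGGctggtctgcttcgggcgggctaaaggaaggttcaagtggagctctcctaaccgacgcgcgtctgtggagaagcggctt
MKI67: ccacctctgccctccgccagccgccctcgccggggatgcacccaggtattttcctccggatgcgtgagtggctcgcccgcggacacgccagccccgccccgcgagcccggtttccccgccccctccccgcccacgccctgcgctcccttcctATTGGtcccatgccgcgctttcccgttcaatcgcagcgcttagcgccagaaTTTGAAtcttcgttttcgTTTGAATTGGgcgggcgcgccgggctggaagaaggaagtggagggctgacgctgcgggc
NCAPD2: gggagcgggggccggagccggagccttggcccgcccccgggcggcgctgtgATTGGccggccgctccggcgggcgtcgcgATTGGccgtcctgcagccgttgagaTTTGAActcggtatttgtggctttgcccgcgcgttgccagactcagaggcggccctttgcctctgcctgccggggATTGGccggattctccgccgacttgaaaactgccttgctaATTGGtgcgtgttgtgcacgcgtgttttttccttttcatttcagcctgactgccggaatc
NCAPG: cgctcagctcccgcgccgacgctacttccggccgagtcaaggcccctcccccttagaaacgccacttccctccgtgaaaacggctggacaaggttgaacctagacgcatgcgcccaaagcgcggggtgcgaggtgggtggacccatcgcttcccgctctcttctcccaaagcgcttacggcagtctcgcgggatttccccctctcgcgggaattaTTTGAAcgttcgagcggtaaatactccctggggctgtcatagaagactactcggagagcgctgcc
NCAPH: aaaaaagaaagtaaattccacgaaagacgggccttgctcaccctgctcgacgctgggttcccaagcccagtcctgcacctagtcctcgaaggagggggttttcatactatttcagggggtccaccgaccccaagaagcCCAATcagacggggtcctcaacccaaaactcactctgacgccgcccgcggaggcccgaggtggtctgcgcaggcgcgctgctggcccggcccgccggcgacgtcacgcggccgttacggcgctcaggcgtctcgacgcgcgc
NCAPD3: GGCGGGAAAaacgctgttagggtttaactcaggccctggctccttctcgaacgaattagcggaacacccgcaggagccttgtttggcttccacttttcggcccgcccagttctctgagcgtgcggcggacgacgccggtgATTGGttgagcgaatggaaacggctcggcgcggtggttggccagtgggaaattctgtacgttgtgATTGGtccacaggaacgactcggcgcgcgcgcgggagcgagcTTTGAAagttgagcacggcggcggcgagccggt

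TOP2A, the gene with the largest difference, held 2 CHR matches, at -194 and -151 from the start, and 4 CCAAT matches, at -244, -160, -93 and -53. MKI67 held CHR matches at -47 and -29 and CCAAT matches at -98 and -24, the last of them sharing a base with the CHR match beside it. NCAPD2 also held 4 CCAAT matches, at -199, -170, -70 and -30, with a CHR match at -145. NCAPG, whose difference was close to that of NCAPD2, held a single CHR match at -35 and no CCAAT. NCAPH held a CCAAT match at -112 and no CHR match. In NCAPD3, which did not pass 2-fold, a CHR match lay at -3, CCAAT matches at -110 and -45 and the E2F matches at -250 and -249. The CHR match of SMC2 also lay at -3, in 1 of its 2 windows, that of SMC4 at -75 and that of NCAPG2 at 36 bases after the start.

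**Figure D5:**
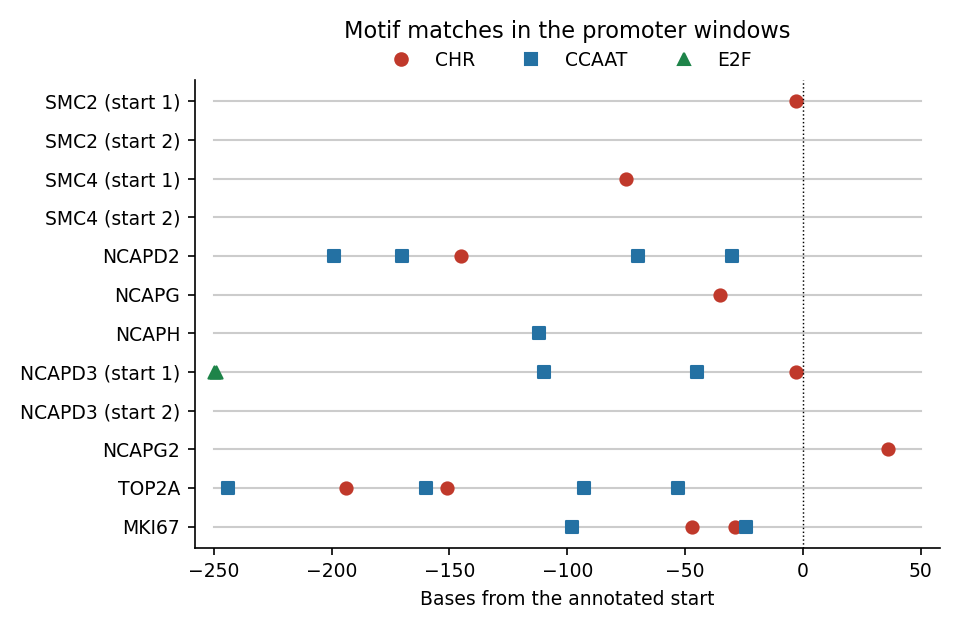
Motif matches in the 12 promoter windows of 9 genes, with 1 line per annotated start and bases from the start on the horizontal axis (circles CHR, squares CCAAT, triangles E2F). Windows of TOP2A, MKI67, NCAPD2 and NCAPD3 hold both CHR and CCAAT, and NCAPH holds CCAAT alone.

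Of all 8972 single-gene features with a promoter window, the 9 genes above among them, 6.77% were lower by more than 2-fold. The share was 12.5% of the 1416 with a CHR match, 7.80% of the 3887 with CCAAT, 8.67% of the 980 with E2F and 16.4% of the 591 with both CHR and CCAAT. These shares are a description of genes that are not independent of each other.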

How the data were processed

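Human MCF10A RNA-seq was analysed in 2 groups of 3 samples, siNT and siPAX9. Reads were single-end and from poly(A)+ RNA, and the authors used Bowtie 2 (hg19) for alignment and Cufflinks for transcript levels, in Partek Flow. They deposited 1 table with 1 FPKM per locus and group. The table gives no counts, depth or spread per sample. The paper's methods give a range of total reads, which cannot be tied to single values, and low FPKM are less reliable. How the libraries were scaled against each other is not given in the sources used here. The table also holds the authors' fold change, test statistic, p-value and q-value, which were not used.

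The log2 difference was log2(siPAX9 FPKM / siNT FPKM), with no pseudocount. A feature counted as lower or higher past 2-fold, among named rows with at least 1 FPKM in the higher group. The 10 genes, the lists and their rules were chosen with earlier results of these data known. The 10 genes and PAX9 were named, with up to the 2 lowest and 2 highest genes of each list and the 3 features nearest to TOP2A, MKI67 and the genes at the median of the 10. Exceptions are stated in the text. Promoter windows came from RefSeq and were placed on GRCh37 by exact match. Scripts (Python 3.11.15, numpy 2.4.6, pandas 2.3.3, matplotlib 3.10.9) were tested on simulated data. Alternatives were a pseudocount of 1, other level filters, other fold limits, 3 scalings and other choices of row. A planned comparison of protein sequences was not run.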

Additional observations from a re-analysis of the deposited data

How the results depend on the processing

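No paired analysis was possible because the table holds 1 value per group, and for the same reason no sample could be left out. Of the 158 alternative values, no log2 difference, median or gap changed sign, and the counts and percentages have no direction. For single genes, 87 of 96 values kept their side of the fold limit, but many could not differ from the main value. Each of the 10 genes has 1 row of its own symbol, so the choices of row change nothing for it. Dropping the minimum FPKM, raising it or moving the fold limit also leaves a gene's own log2 difference unchanged. Only the pseudocount, the centrings and the scaling alter it, so the tally says little about stability. The count of 7 genes lower past 2-fold (7.25% of all features) was 4 with a minimum of 10 FPKM, which 6 of the genes pass (6.28% of all features), and 2 at a 4-fold limit (1.71%). At 1.5-fold it was 10 (17.0%). With a pseudocount of 1 it was 6 (4.86%), because NCAPG2 came to -0.9994. The gap between condensin I and condensin II, -0.60, was -0.52 with the minimum of 10 FPKM, where only NCAPD2 and NCAPD3 remain and the value is that of this pair, and -0.43 with the pseudocount. Centring on all features or on reference genes and scaling to the sum of FPKM, a shift of 0.19 on the log2 scale, each left 7 genes past 2-fold, with 6.53%, 8.42% and 5.15% of all features lower. With no minimum FPKM, 10.9% of all features were lower past 2-fold. Adding the pseudocount also moved NCAPH from -2.04 to -1.24, inside the 4-fold limit and behind MKI67 (-1.43) and NCAPD2 (-1.33). Values per sample were not at hand, so no error was computed for any difference here.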
